A study of Homo sapiens with 80 samples.

Results

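RNA was compared between day 0 and day 2 of a single directed differentiation of WTC11, an established human induced pluripotent stem cell line, towards cardiomyocytes. The comparison took in every gene with at least 1 TPM (transcript abundance, scaled for gene length and library size) in at least 3 of the 8 wells sampled on these days. That rule kept 18507 of 43388 genes, and used no difference between the days. The 8 wells were part of a series of 80 libraries that followed differentiations graded by how many day 16 cells stained for cardiac troponin T. All 8 came from the differentiation begun at passage 52 and classed as high purity at its end, with 4 wells collected on each day. Day and purity labels are those of the TPM columns, which differ from those of the deposited counts, and the files do not settle which are right.

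Cells had been seeded as single cells on Matrigel in mTeSR1, a medium that maintains pluripotency, with the ROCK inhibitor Y-27632. On day 0 the medium was changed to RPMI1640 with B27 minus insulin and CHIR99021, an inhibitor of the kinase GSK3. The labels give a CHIR99021 concentration between 6 and 12 µM, adjusted to each line, and the value used for WTC11 is not stated. On day 2 the WTC11 medium was replaced by one with IWP2, an inhibitor of WNT secretion, and the labels do not say whether the day 2 wells were taken before or after that change. Compound, basal medium, insulin and time all differ between the 2 groups and cannot be told apart. Wells of a day are repeats within 1 differentiation, so every p-value here measures the spread between wells and not between differentiations.

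When GSK3 is inhibited, beta-catenin is no longer marked for destruction, enters the nucleus and works with TCF and LEF factors at WNT target genes. In the embryo, WNT, NODAL and BMP signals together set up the primitive streak, where epiblast cells leave the epithelium and become mesoderm or endoderm. The T-box factors TBXT and EOMES and the homeobox factors MIXL1 and GSC mark cells in that state. Many WNT targets are themselves inhibitors of WNT signalling, among them DKK1, AXIN2, NKD1, NOTUM and RNF43.

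Depth, given as reads recovered from the TPM, was 11530584 to 18180381 in the day 0 wells and 9985748 to 14750330 in the day 2 wells. RN7SK, the noncoding RNA of the 7SK particle, held 1.65% to 2.09% of all TPM on day 0 and 7.22% to 7.7% on day 2. RNR2, the mitochondrial large ribosomal RNA, held 15.2% to 17.3% and then 13.2% to 15.5%. The part of these shares in single gene results was not tested, beyond the scaling of libraries. Day 0 wells had high levels of the pluripotency factors SOX2 (282 TPM), NANOG (102 TPM) and LIN28A (2024 TPM). POU5F1, the defining factor of these cells, was an exception: its 7 entries summed to at most 0.866 TPM in any well. Its near-identical copy POU5F1P3 had 25 to 32.7 TPM on day 0 and 12.8 to 14.5 TPM on day 2, and reads of these copies cannot be told apart.

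A gene was called changed at a Benjamini-Hochberg adjusted p under 0.05 in limma together with a log2 fold change of at least 1 in either direction. Fold changes were fitted on log2(TPM + 1), which understates the change of genes with low levels. Of the genes tested, 4126 (22.3%) were called, of which 2559 rose (13.8% of genes tested) and 1567 fell (8.47%). The largest changes were rises: 331 genes rose by at least 3 on the log2 scale and 43 fell by that much, while 63 rose and 2 fell by at least 5. The median change over all genes tested was 0.043. In 3934 of the called genes the wells of the days did not overlap, against 59.6% of all genes tested. Among protein-coding genes 2887 of 13413 (21.5%) were called, and among long noncoding RNAs 732 of 2489 (29.4%).

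**Figure D1:**
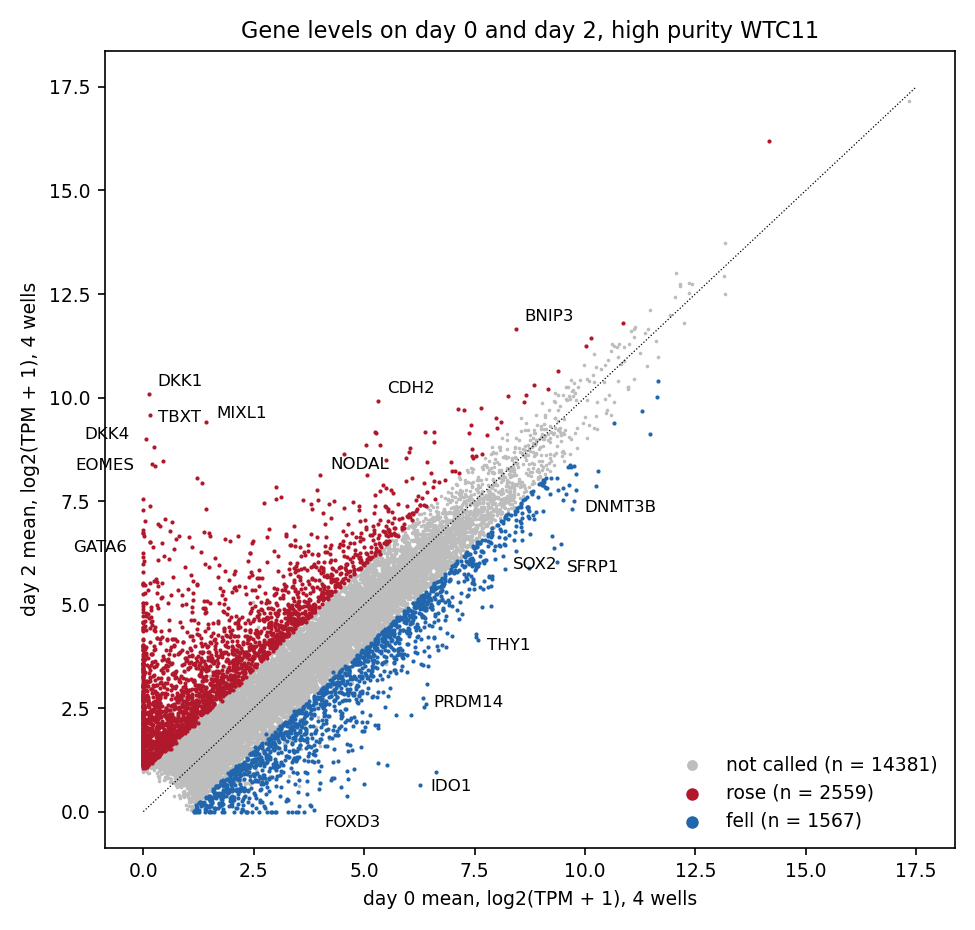
Each point is a gene, placed by log2(mean TPM + 1) of the 4 day 0 wells (horizontal axis) and of the 4 day 2 wells (vertical axis), with 2559 genes that rose in red, 1567 that fell in blue and the rest in grey. Red points reach far from the dotted line of equal level along the left edge, where DKK1, TBXT and EOMES lie, and the red point at the upper right is RN7SK.

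Low values set limits on these counts. Among genes kept, 1238 had every day 0 well under 1 TPM and so passed only through day 2; 942 of them rose. In the other direction 427 had every day 2 well under 1 TPM, and 220 of them fell. At the edge of the filter, 976 genes reached 1 TPM in exactly 3 wells, with a median highest well of 2.03 TPM, and 1136 genes left out reached it in exactly 2, with a median of 1.65 TPM. Of the called genes, 278 were at 0 TPM in all day 0 wells and 27 in all day 2 wells. These wells are bulk samples, in which fewer cells expressing a gene and less RNA of it per cell cannot be told apart.

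The transcription factors of the primitive streak made up the group with the largest changes. Of 16 listed, 14 were tested and 13 rose, against 13.8% of all genes, with a median change of 6.2. Of the 14, 9 had passed the filter only through day 2, and MESP2 and LHX1 stayed under it. Among all genes that passed in that way 942 of 1238 rose, so 13.8% is no yardstick for these 9. TBXT (chr6:166157656-166168655, GRCh38.p14), the T-box factor also called brachyury, stood at 0, 0.3297, 0.0995 and 0 TPM in day 0 wells 1 to 4. On day 2 the same gene stood at 729.5, 818.5, 795 and 688 TPM. No well of one day came near a well of the other, and the fitted change was 9.46 ± 0.10 (log2, SE, n = 4 wells per day, limma adjusted p = 9.83e-11). EOMES, a T-box factor of mesoderm and endoderm, went from 0.0739, 0.0932, 0.422 and 0.212 TPM to 322, 359, 315 and 311 TPM, a change of 8.13. Its wells also kept wholly apart.

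MIXL1, a homeobox factor of the streak, had 1.998, 1.34, 1.52 and 1.81 TPM on day 0 and 668, 764, 707 and 588 TPM on day 2. SP5, a zinc finger factor and direct WNT target, had 0, 0.384, 0 and 0.374 TPM and then 441, 483, 453 and 403 TPM. All day 2 wells of both genes lay above all day 0 wells, as the rule for the 15 largest rises requires. The changes were 8.04 ± 0.10 and 8.59 ± 0.13. Their promoters are shown because they were the promoters with the letters CTTTGAT, a sequence that TCF and LEF factors are known to bind, among the largest rises. Each runs from 250 bases before to 50 bases after the annotated start, 5′ to 3′ on the plus strand of GRCh38.p14 (RefSeq), with CTTTGAT in capitals: chr2:170715087-170715386 for SP5 and chr1:226223414-226223713 for MIXL1.
SP5: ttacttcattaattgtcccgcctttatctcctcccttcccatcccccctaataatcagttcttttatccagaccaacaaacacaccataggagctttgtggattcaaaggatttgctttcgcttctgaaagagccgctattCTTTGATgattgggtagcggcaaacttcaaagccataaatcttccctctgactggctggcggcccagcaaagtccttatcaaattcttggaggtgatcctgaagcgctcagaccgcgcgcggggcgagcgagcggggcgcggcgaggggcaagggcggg
MIXL1: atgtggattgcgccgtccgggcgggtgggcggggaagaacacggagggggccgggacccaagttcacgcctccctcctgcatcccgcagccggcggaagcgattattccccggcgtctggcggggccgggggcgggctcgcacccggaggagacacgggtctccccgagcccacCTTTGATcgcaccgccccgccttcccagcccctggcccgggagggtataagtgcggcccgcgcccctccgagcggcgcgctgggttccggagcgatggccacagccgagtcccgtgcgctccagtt
The match began 109 bases before the start of SP5 and 76 bases before that of MIXL1. CTTTGAT or its reverse complement ATCAAAG was found in 721 of 27305 promoters of this length (2.64%). It was in 38 of 1284 promoters of coding genes that rose (2.96%), in 11 of 970 of those that fell (1.13%) and in 159 of 10975 of all coding genes tested (1.45%). Of the 15 largest coding rises, 10 had a promoter entry and 2 held the letters; of the 15 largest falls, 10 had one and 0 held them. Such a match is a description of the window and shows no binding.

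Several streak factors had no read on day 0. GSC, the homeobox factor goosecoid, was at 0 TPM in all 4 wells and then at 80.7, 117, 135 and 91.6 TPM, at least 188-fold higher when a floor of 3 reads per library is put in for 0. MSGN1, a factor of presomitic mesoderm, went from 0 to 176, 136, 148 and 164 TPM (at least 301-fold). CDX1, a caudal homeobox factor of posterior identity, went from 0 to 103, 121.5, 98.9 and 93.5 TPM (at least 276-fold). EVX1 (at least 178-fold) and CDX2 (at least 140.0-fold) likewise had 0 reads on day 0, with day 2 means of 37.5 ± 3.498 and 20.6 ± 3.34 TPM (SD, n = 4). MESP1, a factor of the earliest cardiac mesoderm, reached only 4.07 ± 0.92 TPM. NKX1-2 was the tested factor that was not called: its wells overlapped, at 30.2, 27.1, 28.04 and 26 TPM and then 43.4, 24.5, 22.2 and 53.4 TPM.

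**Figure D2:**
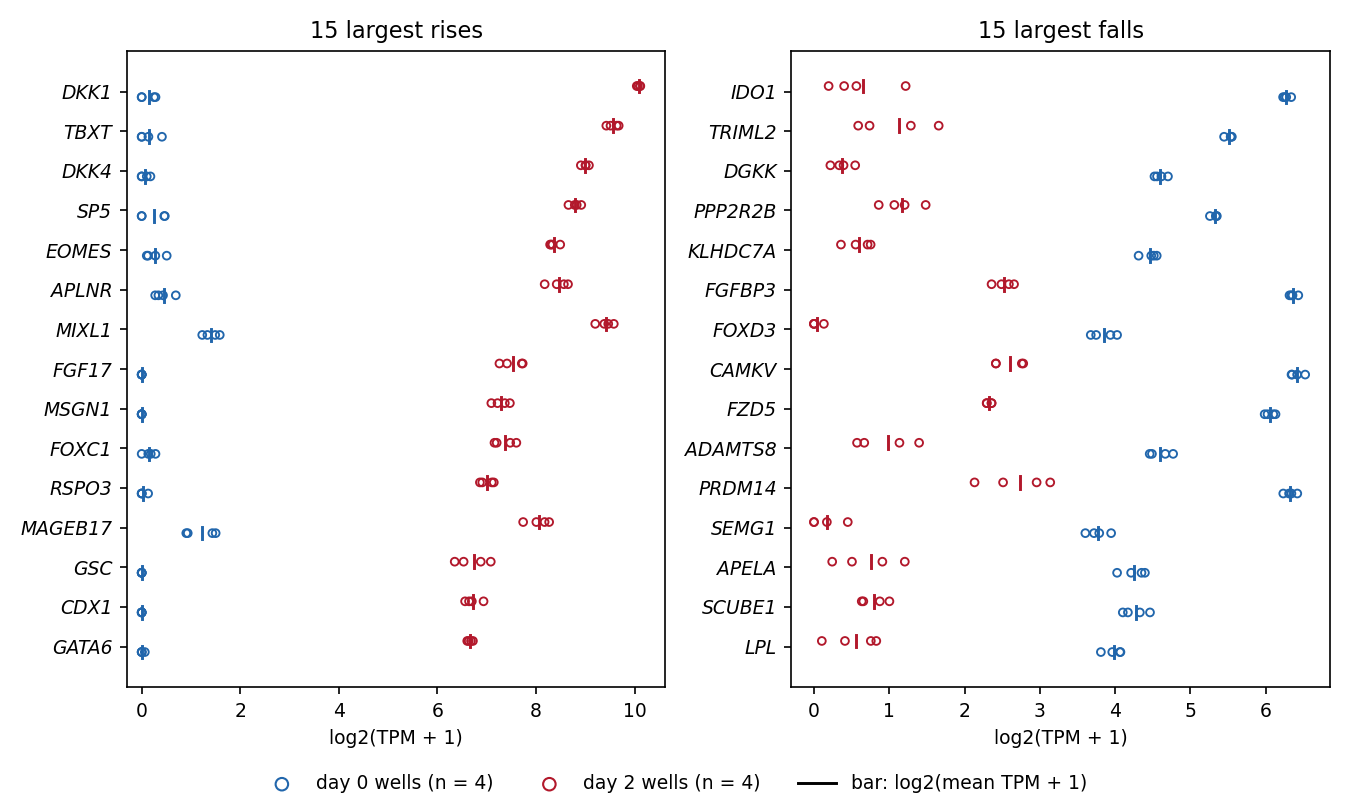
Open circles give log2(TPM + 1) of each well, blue for day 0 and red for day 2 (4 wells each), and bars give the log2 of the mean TPM + 1, for the 15 coding genes with the largest rise (left) and the largest fall (right) that had at least 10 TPM on the higher day. Wells of the same day lie close together, and the days do not overlap, which the rule for choosing these genes requires.

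WNT feedback genes rose with them. Of 19 listed, 18 were tested, 14 rose and 1 fell (13.8% and 8.47% over all genes), with a median of 3.21. Among the 18, 7 had passed only through day 2. DKK1 (chr10:52314281-52317657), a secreted antagonist of WNT co-receptors, had the largest change on the log2(TPM + 1) scale of any gene named here; on recovered reads the fitted value of FGF17, which has no read on day 0 and so depends on the prior count, was ahead of it (14.9 against 13.0 by edgeR). It stood at 0, 0.189, 0 and 0.215 TPM on day 0 and at 1110, 1103, 1056 and 1072 TPM on day 2, a change of 9.98 ± 0.07 (limma adjusted p = 1.06e-11). The day 2 wells differed from each other by little beside that change. DKK4, a relative of DKK1, had 3 reads in all on day 0 and 538, 513, 480.4 and 514 TPM on day 2; the ratio per read of depth was 8220 (counting interval 2810 to 39900).

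AXIN2, a scaffold of the complex that degrades beta-catenin, already had 16.4, 18.1, 18.6 and 19.6 TPM on day 0 and rose to 144, 134, 126 and 135 TPM. Its wells did not overlap. LEF1, a partner of beta-catenin on DNA, rose from 0.2995 ± 0.272 to 118 ± 13.7 TPM, while its relative TCF7 rose from 4.32 ± 0.2695 to 22.3 ± 1.37 TPM. NKD1, an inhibitor of Dishevelled, rose from 1.79 ± 0.171 to 105 ± 6.84 TPM, and NOTUM, an enzyme that strips the lipid from WNT ligands, from 0.0218 ± 0.0436 to 7.28 ± 0.284 TPM. Both ubiquitin ligases that remove WNT receptors rose, RNF43 by 3.38 and ZNRF3 by 1.04; ZNRF3 lost its call without TMM scaling (0.99). LGR5, a receptor for R-spondins, rose from 0.0483 ± 0.0752 to 26.97 ± 7.37 TPM. MYC, a growth regulator often listed among WNT targets, fell: it stood at 33.2, 33.6, 28.8 and 30.96 TPM and then at 3.58, 3.72, 2.05 and 3.17 TPM. BAMBI, KREMEN2 and CCND1 were not called, with changes of -0.16, -0.25 and -0.14.

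Among WNT ligands and R-spondins, 9 of 23 were tested and 14 stayed under the filter. Of those tested 5 rose and 1 fell, against 13.8% and 8.47% of all genes. Of the 9, 5 had passed only through day 2 and 1 only through day 0, so these counts are bound up with the filter. WNT3A, a canonical ligand of the streak, was at 0 TPM in every day 0 well and at 10.6, 13.6, 11.3 and 8.98 TPM on day 2 (at least 63.7-fold). WNT8A was also at 0 and then at 22.1, 21.8, 22.8 and 24 TPM (at least 123-fold). WNT5A and WNT5B, ligands best known for signalling without beta-catenin, rose from 1.11 ± 0.0757 to 51.8 ± 13.95 TPM and from 0.529 ± 0.161 to 108 ± 5.27 TPM. RSPO3, a secreted amplifier of WNT signals, had 2 reads in all on day 0 and 137, 115, 119 and 140.5 TPM on day 2, a ratio of 6460 (counting interval 1790 to 53300). RSPO2 fell by 1.05 from a low level (1.31 TPM), and was not called without day 0 well 2 or without day 0 well 3 (-0.95).

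Receptors and secreted inhibitors moved in both directions, with 4 of 19 up and 6 down, against 13.8% and 8.47% of all genes. Their median change was -0.22. FZD5, a Frizzled receptor, stood at 62.4, 67.7, 69.1 and 64.1 TPM on day 0 and fell to 3.91, 4.13, 4.14 and 3.91 TPM. The 4 wells of each day were tightly grouped. FZD8 fell by 1.75, whereas FZD6 rose by 1.41 and FZD10 went from 0 to 15.1 ± 2.32 TPM. FZD1 rose by 1.04, a call that was lost without TMM scaling (1.00 after rounding) and without day 0 well 3, day 0 well 4 or day 2 well 2 (0.92 at the lowest). FZD7, at 326 ± 12.2 TPM on day 0 the receptor with the highest level, was not called (-0.04). Of the secreted inhibitors, SFRP1 fell from 659, 644, 672 and 662 TPM to 65.3, 63.9, 57.8 and 70.4 TPM. SFRP2 fell by 1.76 and WIF1 by 1.8, while CER1, an inhibitor of NODAL, BMP and WNT ligands, rose from 1.53 ± 0.254 to 245 ± 13.99 TPM.

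Core pluripotency factors fell to different degrees. Of 15 tested, 9 fell (background 8.47%) and 1 rose, with a median of -1.21. PRDM14, a regulator of the naive and germline state, fell from 84.7, 74.3, 80.2 and 78.4 TPM to 4.71, 6.77, 3.39 and 7.81 TPM. FOXD3, a forkhead factor, fell from 15.3, 11.8, 12.4 and 14.3 TPM to 0, 0, 0.0954 and 0 TPM; with 1 read in all on day 2, the ratio of day 0 to day 2 was 471 (counting interval 84.2 to 18700). SOX2 fell from 283, 274, 289 and 280.3 TPM to 79.8, 64.5, 64.7 and 75.3 TPM and NANOG from 108, 101, 97.4 and 103 TPM to 44.5, 48.8, 44.4 and 46.8 TPM. Both remained well above 0 in every day 2 well, with changes of -1.93 ± 0.07 and -1.08 ± 0.05. DPPA4, L1TD1, ZFP42, ZSCAN10 and UTF1 also fell. LIN28A (-0.74), LIN28B (-0.41), TDGF1 (-0.90), VRTN (-0.99) and SALL4 (-0.04) were not called. VRTN lay at the threshold and was called without day 0 well 3, without day 2 well 4 and under 4 other settings (-1.00 to -1.04).

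In the NODAL pathway 3 of 13 tested genes rose and 3 fell, against 13.8% and 8.47% of all genes. NODAL itself, the TGF-beta family ligand that patterns the streak, stood at 14.6, 13, 18.3 and 14.5 TPM on day 0 and at 238, 327, 308 and 239 TPM on day 2. Day 2 wells 2 and 3 were the higher pair, and no well overlapped between the days. FOXH1, its nuclear partner, rose by 1.76. LEFTY2, a NODAL inhibitor, fell by 2.69 and SMAD7, an inhibitor of TGF-beta family signalling, by 1.83. LEFTY1 was not called (-0.92), but was without day 2 well 2 or without day 2 well 3.

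Of 18 BMP genes tested 10 rose and 1 fell, against 13.8% and 8.47% of all genes. Among the 18, 5 had passed only through day 2 and 2 only through day 0. BMP4, a ligand that promotes mesoderm, rose from 1.15, 1.52, 1.098 and 1.504 TPM to 24.1, 16.6, 14.5 and 26.1 TPM, and BMP2 from 2.14, 2.02, 2.47 and 3.22 TPM to 43.7, 25.99, 32.1 and 44.9 TPM. In both genes day 2 wells 1 and 4 were the higher pair. Targets were divided: MSX1 rose by 6.37, MSX2 by 2.44 and ID2 by 1.85, ID3 was not called (0.67), and ID1 fell by 1.27. Of the antagonists, FST (follistatin) rose from 7.03 ± 0.557 to 229.7 ± 27.4 TPM and CHRD (chordin) by 1.74. BMP6 (-0.63) and BMPR1B (-0.63) were not called, but were called as falls with a pseudocount of 0.1 TPM (-1.14 and -1.11), by edgeR and by DESeq2; BMPER (0.92) was called as a rise under the same settings (2.41 with that pseudocount).

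FGF genes gave 8 rises and 4 falls of 22 tested, against 13.8% and 8.47% of all genes. Of the 22, 3 had passed only through day 2. FGF17 had no read on day 0 and 169, 209, 211 and 152 TPM on day 2, at least 1260-fold higher. FGF4 rose from 0.342, 0.647, 0.163 and 0.429 TPM to 112, 162, 144 and 115 TPM and FGF8, the ligand needed for cells to leave the mouse streak, from 1.47 ± 0.587 to 12.1 ± 3.06 TPM. FGF2, the ligand that supports human pluripotent cells, fell from 50.4 ± 2.15 to 12.3 ± 1.96 TPM. Of the receptors, FGFR2 fell by 2.04, FGFR4 by 1.4 and FGFR3 by 1.09, the last not called without day 0 well 3 (-0.96). FGFR1 was not called (-0.36). The feedback inhibitors were uneven: SPRED2 rose by 1.8 and IL17RD by 1.46, SPRY1 and SPRY4 were not called, and the rise of SPRY2 (1.02) was lost without TMM scaling (0.97) and without day 2 well 2 or day 2 well 3 (0.98).

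Of 12 Notch genes tested 4 rose and 3 fell, and of 5 retinoic acid genes 3 rose and 1 fell. The shares over all genes were 13.8% and 8.47%. DLL3, a Notch ligand of presomitic mesoderm, rose from 1.49 ± 0.564 to 76.4 ± 8.82 TPM, and the oscillating repressor HES7 from 0.0134 ± 0.0267 to 13.2 ± 0.9795 TPM. LFNG rose by 2.47 and HES1 by 1.75; NRARP fell by 1.72, JAG2 by 1.08 and HEY1 by 1.03. The call of HEY1 was lost without day 0 well 1, day 0 well 4, day 2 well 2 or day 2 well 3 (-0.86 at the weakest). CYP26A1, which degrades retinoic acid, rose from 1.55 ± 0.796 to 29.2 ± 3.84 TPM. ALDH1A2, which makes it, rose from 0.117, 0.0737, 0.167 and 0.0837 TPM to 23.3, 15.3, 14.5 and 29.4 TPM, with day 2 wells 1 and 4 the higher pair.

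Mesenchymal genes rose while CDH1 rose as well. Of 18 genes tested on the list for epithelial-mesenchymal transition, 12 rose and 2 fell, against 13.8% and 8.47% of all genes. CDH2 (N-cadherin) stood at 39.7, 37, 42.1 and 37.2 TPM on day 0 and at 943.5, 1011, 992 and 921 TPM on day 2, a change of 4.65 ± 0.04. CDH1 (E-cadherin), whose loss is the usual sign of the transition, went from 178, 158, 182 and 174 TPM to 336, 454, 419.5 and 328 TPM, a rise of 1.19 ± 0.10. No day 2 well lay below a day 0 well in either cadherin. EPCAM, another epithelial adhesion molecule, rose from 395 ± 8.24 to 954 ± 117 TPM. The repressors of E-cadherin rose too: SNAI1 by 3.45, SNAI2 by 2.96, ZEB1 by 1.92 and ZEB2 by 4.77. VIM (vimentin) rose from 169.5 ± 4.87 to 645.5 ± 13 TPM and FN1 (fibronectin) by 1.87. ESRP2, an epithelial splicing factor, fell by 1.65, and its relative ESRP1 was not called (-0.23). CLDN6 fell by 1.03 and was not called without day 0 well 2 or without day 2 well 4 (-0.99), or with the filter at 5 TPM (-0.98).

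All 13 tested genes on the list for cardiac and lateral mesoderm rose, against 13.8% of all genes. However, 8 of the 13 had passed only through day 2. Among all genes that passed in that way 942 of 1238 rose, so 13.8% is no yardstick for these 8. Of the 20 listed, 7 stayed under the filter. Those under it were HAND2, TBX5, TBX20, ISL1, NKX2-5, MEF2C and FOXC2, of which several specify cardiac progenitors later. APLNR, the apelin receptor of early mesoderm, stood at 0.209, 0.616, 0.265 and 0.3498 TPM on day 0 and at 401, 342, 288 and 378 TPM on day 2. APELA, a peptide ligand of that receptor, went the other way, from 20.1, 17.6, 15.3 and 19.4 TPM to 1.31, 0.183, 0.877 and 0.419 TPM. GATA6, a zinc finger factor of mesoderm and endoderm, had 1 read in all on day 0 and 98.5, 104.5, 102 and 96.4 TPM on day 2, a ratio of 7040 (counting interval 1260 to 278000). GATA4 rose from 0.0266 ± 0.03503 to 23.3 ± 1.44 TPM, PDGFRA from 1.18 ± 0.165 to 33.5 ± 3.49 TPM and FOXC1 from 0.112 ± 0.08897 to 165 ± 24.7 TPM. KDR, the VEGF receptor used to sort cardiac mesoderm, was already at 49.7 ± 0.899 TPM on day 0 and rose to 208 ± 13.5 TPM. HAND1 reached 11.2 ± 0.933 TPM and FOXF1 only 1.89 ± 0.701 TPM.

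Of 9 endoderm genes tested 7 rose, against 13.8% of all genes, but 4 of the 9 had passed only through day 2 and 1 only through day 0. For those 4 the 13.8% is no yardstick, since 942 of 1238 genes that passed only through day 2 rose. FOXA2 stood at 0.311, 1.37, 0.689 and 1.78 TPM and then at 79.8, 121, 126 and 66.7 TPM, where day 2 wells 2 and 3 were the higher pair. HHEX rose from 0.137 ± 0.213 to 28.3 ± 5.46 TPM and CXCR4 from 0.727 ± 0.486 to 39.7 ± 5.71 TPM, whereas SOX17, the defining factor of definitive endoderm, reached 5.77, 3.98, 2.95 and 3.57 TPM from 0. FOXA3 (-0.17) was not called. AFP (-0.80) was not called either, but was called as a fall with a pseudocount of 0.1 TPM (-2.22), by edgeR (-2.55) and by DESeq2 (-2.62). Of 7 neuroectoderm genes tested, OTX2 and ZIC2 rose by 1.45 and 1.12, and POU3F1, SOX3 and HES3 fell. In the low purity wells and in the total RNA experiment described below, 0 of these 7 rose and 4 fell. Over all genes 13.8% rose and 7.59% fell in those wells, and 13.2% rose and 9.62% fell in that experiment. The early HOX genes, which give cells their position along the body axis, were all but absent on day 0, with a summed level of at most 0.106 TPM in any well. All 7 tested had passed only through day 2, and HOXB1 was the highest at 14.2 ± 2.78 TPM. HOXB4 stood at 7.35, 2.401, 3.35 and 8.57 TPM in the day 2 wells, highest in wells 1 and 4, and 4 of the 11 listed stayed under the filter.

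**Figure D3:**
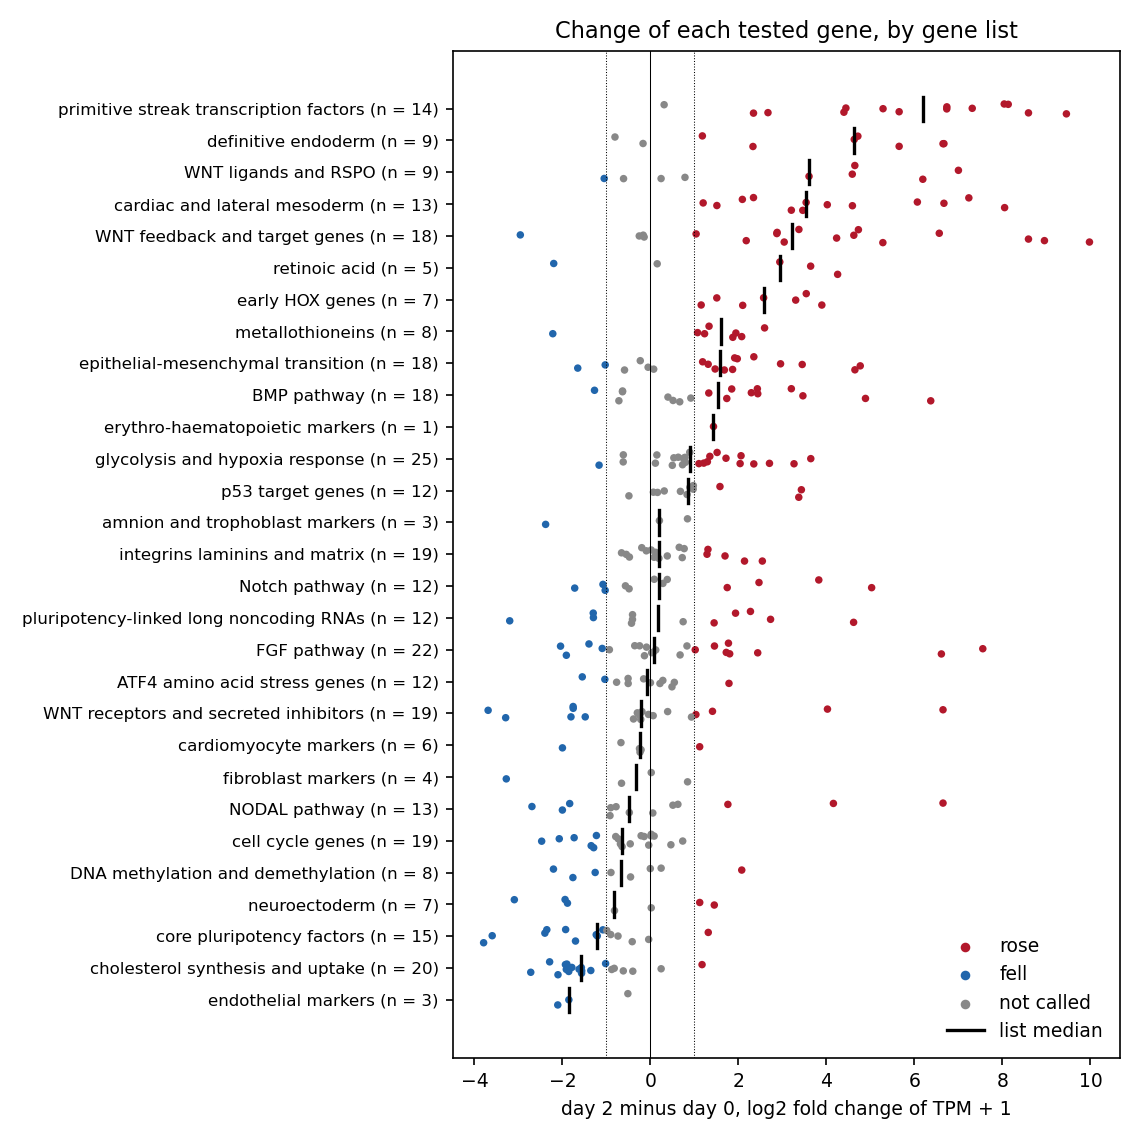
Each point is the day 2 minus day 0 change (log2 fold change of TPM + 1, horizontal axis) of a tested gene, by gene list (vertical axis), red where it rose, blue where it fell and grey where it was not called; black bars are list medians and dotted lines mark a change of 1. Primitive streak factors lie furthest right, with a median of 6.2, and cholesterol genes lie mostly left, with a median of -1.57.

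Enzymes of cholesterol synthesis fell together. Of 20 genes tested, 14 fell and 1 rose (8.47% and 13.8% over all genes), and the median was -1.57 against 0.043 for all genes. HMGCS1, the first committed enzyme of the mevalonate route, fell from 284, 292, 303 and 286 TPM to 62.7, 48.8, 53.2 and 63.3 TPM. Later enzymes of the route fell too, among them FDFT1 (-2.1), SQLE (-1.93), LSS (-1.57), CYP51A1 (-1.35) and DHCR7 (-1.9). INSIG1, a sterol sensor, fell from 100.5, 94.5, 111 and 96.8 TPM to 12.8, 13, 13.4 and 16.7 TPM. NSDHL (-0.88), STARD4 (-0.82), SREBF2 (-0.40) and SC5D (0.25) were not called. MVK fell by 1.02 and lost its call without day 0 well 1, day 0 well 2, day 2 well 3 or day 2 well 4 (-0.93 at the weakest), and with the filter at 5 TPM (-0.98).

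Glycolysis and hypoxia genes gave 12 rises and 1 fall of 25 tested, against 13.8% and 8.47% of all genes. The rises were fewer in the other differentiations described below. BNIP3, a mitophagy receptor, stood at 278, 391, 386 and 325 TPM on day 0 and at 2900, 3695, 3408 and 2792 TPM on day 2. PDK1, which holds pyruvate back from the mitochondria, rose from 11.98, 14.5, 16.6 and 14.7 TPM to 182, 193, 177 and 186 TPM. All day 2 wells of both genes lay above all day 0 wells. VEGFA, the angiogenic ligand, rose from 40.1, 46.7, 45.7 and 43.5 TPM to 177, 243, 307 and 177.5 TPM, highest in day 2 well 3. SLC2A3, a glucose transporter, rose by 1.3, PKM by 1.52, PGK1 by 1.35 and LDHA by 1.1, whereas GAPDH (0.12), ENO1 (0.53) and HK2 (0.80) were not called. EGLN3, an oxygen sensor usually raised by hypoxia, fell by 1.17, and ADM, likewise usually raised, was not called (-0.62).

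Of 8 genes of DNA methylation and demethylation tested, 3 fell and 1 rose, against 8.47% and 13.8% of all genes. DNMT3B, a de novo methyltransferase, fell from 859, 825, 882 and 875 TPM to 173.5, 193, 187.5 and 165 TPM. DNMT3A fell by 1.25 and UHRF1, which brings DNMT1 to replicated DNA, by 1.76; DNMT1 was not called (-0.90). TET2, a demethylating dioxygenase, rose from 2.31 ± 0.1404 to 12.6 ± 0.901 TPM, while TET1 (0.25) and TET3 were not called. Of 19 cell cycle genes tested, 6 fell and 0 rose, beside the same shares over all genes. CCNE1, the cyclin of S phase entry, fell from 67.6, 69.6, 66.2 and 70.02 TPM to 14.1, 8.59, 8.36 and 14.7 TPM, and PCNA, the clamp of DNA polymerase, from 458.5 ± 21.8 to 134 ± 24.3 TPM. MCM2 and MCM5, parts of the replicative helicase, fell by 1.29 and 2.07. CCNA2 and CCND3 fell as well, and the mitotic genes TOP2A (-0.04), CCNB1 (-0.64), AURKA (0.09) and MKI67 (-0.79) were not called.

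Of 12 p53 targets tested, 3 rose (13.8% over all genes), with a median of 0.87 against 0.043 for all genes. CDKN1A, an inhibitor of cyclin-dependent kinases, rose from 3.01 ± 0.993 to 38.6 ± 6.28 TPM, GDF15 by 3.43 and ZMAT3 by 1.58. MDM2 was not called (0.68). PHLDA3 (0.98) and FDXR (0.90) lay just under the threshold and were called as rises with a pseudocount of 0.1 TPM, by edgeR and by DESeq2 on recovered reads (1.01 to 1.06). Of 12 amino acid stress genes tested, 1 rose and 2 fell, close to the share of all genes called (22.3%). DDIT3 rose by 1.79, PSAT1 fell by 1.55, and TRIB3 fell by 1.03, without its call when day 2 well 4 was left out (-0.99) or with the filter at 5 TPM (-0.997). Among 19 matrix genes tested, 5 rose and 0 fell, against 13.8% and 8.47% of all genes. ITGA5, the fibronectin receptor subunit, rose by 2.14 and the laminin chains LAMB1 and LAMC1 by 1.7 and 1.29.

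Markers of later or other cell types were mostly low. Of 10 cardiomyocyte markers 4 stayed under the filter, 1 rose and 1 fell (13.8% and 8.47% over all genes tested). The sum over the list was 51.2 to 53.9 TPM on day 0 and 45.4 to 48.8 TPM on day 2. TNNT2, the troponin by which purity is measured on day 16, stood at 4.37, 5.62, 6.49 and 6.64 TPM and fell to 0.3804, 0, 1.02 and 1.59 TPM. TTN, the giant sarcomere protein titin, rose from 5.75, 6.85, 7.11 and 6.19 TPM to 16.3, 13.9, 14.1 and 14.6 TPM. The endothelial list, with 4 of 7 under the filter, summed to 14.8 to 17.4 TPM and then to 3.28 to 3.6 TPM, with falls in TEK and ERG. In the fibroblast list THY1, also a surface marker of pluripotent cells, fell from 185 ± 9.62 to 17.6 ± 1.65 TPM, and LUM, DCN and POSTN were under the filter. Amnion and trophoblast markers had 10 of 13 under the filter, and of the haematopoietic list HBE1 alone was tested, at 1.79 ± 0.925 TPM on day 2. Whether such cells had a part in the other results was not tested.

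Most of the largest falls were in genes outside these lists. IDO1, which breaks down tryptophan, had the largest fall of the coding genes named, on the log2(TPM + 1) scale: it stood at 75.3, 76.4, 80.0 and 74.2 TPM on day 0 and at 0.477, 0.144, 0.3202 and 1.33 TPM on day 2, a change of -5.64 ± 0.20 (limma adjusted p = 3.97e-08). Every day 0 well was above 70 TPM and every day 2 well below 2 TPM. Wells that do not overlap were a condition for the 15 largest falls. TRIML2 fell by 4.41 and DGKK, a diacylglycerol kinase, by 4.2. PPP2R2B, a regulatory subunit of phosphatase 2A, fell from 39.8, 39.6, 39.5 and 37.3 TPM to 1.797, 0.815, 1.096 and 1.304 TPM. FGFBP3 (-3.79), CAMKV (-3.77), KLHDC7A (-3.84), ADAMTS8 (-3.61), SEMG1 (-3.58), SCUBE1 (-3.44) and LPL (-3.42) were also among the 15 largest. On the rising side MAGEB17, a member of the MAGE family, was the one largest coding rise outside the lists, at 1.702, 0.873, 0.911 and 1.83 TPM and then 256, 307, 288 and 213 TPM.

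Noncoding genes with the largest changes lay near or within coding genes in several cases. LINC01124 had no read on day 0 and 71.6, 69.7, 71.2 and 66.01 TPM on day 2 (at least 222-fold), and lies 770 bases from SP5. LNCAROD, 133220 bases from DKK1, went from 0 to 124, 91.7, 101 and 123.5 TPM (at least 193-fold). PPIAP46, a pseudogene that lies within CYP11A1, had 1 read in all on day 0 and 329, 385, 333 and 306 TPM on day 2, a ratio of 3060 (counting interval 549 to 121000). CYP11A1 itself went from 1.46 to 12.0 TPM, and reads of such overlapping genes cannot be told apart, since the strand setting of the counting is not given in the sources used here. LOC105379675, within CAST, rose from 0 to 54.1 ± 10.5 TPM (at least 58.1-fold) while CAST was not called (-0.14). LINC01867 rose by 6.69 with its nearest coding gene, ASB3, 1279910 bases away.

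On the falling side FOXD3-AS1, which overlaps FOXD3, went from at least 94.2 TPM in every day 0 well to 0.715, 0.865, 0.799 and 1.32 TPM. FEZF1-AS1, which overlaps FEZF1, fell by 3.38 beside a fall of 2.7 in FEZF1. The overlapping pair LOC107984118 and LINC01484 fell by 4.3 and 3.65; LINC01484 had 1 read in all on day 2, with a ratio of 128 (counting interval 22.6 to 5080). Long noncoding RNAs linked to pluripotency went both ways, with 5 of 12 up and 3 down, against 13.8% and 8.47% of all genes. ESRG fell from 817 ± 29.1 to 321 ± 24.4 TPM and LNCPRESS1 by 3.2, while LINC00458 rose from 60.9, 63.9, 66.9 and 62.4 TPM to 407, 428, 420.1 and 394 TPM. LINC01356 rose by 4.62 and LINC-ROR by 1.45.

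Later wells of the same differentiation show how long the day 2 levels lasted. Between 1 well (day 10) and 4 wells (days 4 and 6) were sampled per day, and the values are means without a test. Of the 15 largest coding rises 13 had their highest mean on day 2, which their choice by the day 2 level favours. The mean of TBXT was 758 TPM on day 2, 8.07 TPM on day 4 and 0.316 TPM on day 6. EOMES was still at 107 TPM on day 4 and at 1.37 TPM on day 6. DKK1 was at 1.78 TPM on day 4 and at 82.2 TPM on day 8. The exceptions were MAGEB17, highest on day 4 (316 TPM), and GATA6, highest on day 6 (119.8 TPM) and still at 91.9 TPM on day 16. CDH2 was still at 754 TPM on day 16.

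Of the 15 largest falls 11 had their highest mean on day 0, which their choice by the day 0 level likewise favours. FZD5 was highest on day 4 (218 TPM), DGKK (33.01 TPM) and APELA (246 TPM) on day 6, and LPL on day 13, at 24.6 TPM. SFRP1 likewise was at 64.4 TPM on day 2 and at 487 TPM on day 4. NANOG was at 3.71 TPM on day 4 and 0.216 TPM on day 6, and SOX2 at 44.7 and 14 TPM. Over the 25 high purity libraries, the genes whose log2(TPM + 1) correlated most with TBXT were GSC (r = 0.992), ASB5 (0.992), NTN1 (0.991), NKD1 (0.989) and FGF17 (0.989). These libraries share a differentiation, and outside day 2 no day had a TBXT mean above 8.07 TPM, so the correlation is a description.

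**Figure D4:**
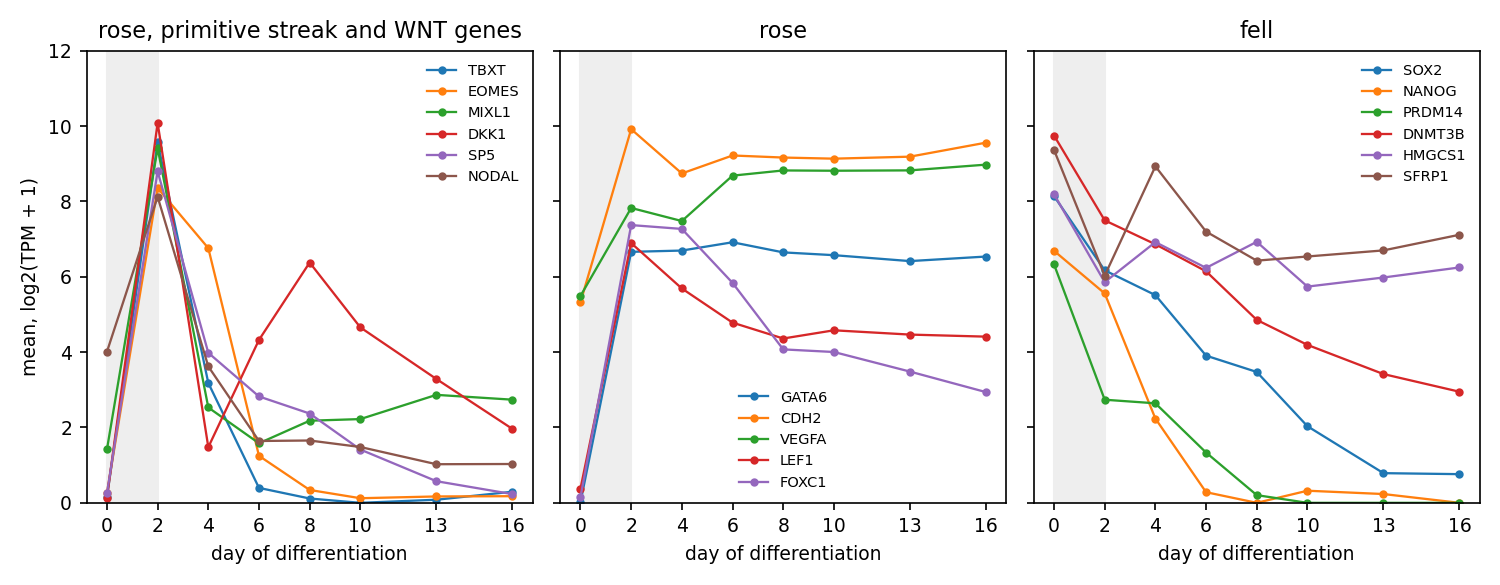
Lines join the means of the high purity wells (log2(TPM + 1), vertical axis; 1 to 4 wells per day) on each day of differentiation (horizontal axis), with the interval from day 0 to 2 shaded, for primitive streak and WNT genes that rose, other genes that rose and genes that fell. TBXT and MIXL1 peak on day 2, GATA6 and CDH2 stay up, and SFRP1 falls to day 2 and is higher again on day 4.

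The same interval was sampled in a WTC11 differentiation begun at passage 69 and classed as low purity, with 4 wells per day. Purity, passage and differentiation cannot be told apart there, and its wells were shallower, at 6591851 to 11081041 reads on day 0 and 6856213 to 7749096 on day 2. In that differentiation 3965 genes (21.4%) were called, of which 2560 rose (13.8%) and 1405 fell (7.59%). In all, 2816 genes were called in the same direction in both, which is 68.3% of the calls here and 71.0% of those there. All 15 largest rises and all 15 largest falls were called there as well. The difference in change itself, tested in a fit over all 16 wells, was called for 722 genes (3.9%). It was larger in the high purity differentiation, in the sense of a more positive change, for 382 (2.06%) and in the low purity one for 340 (1.84%). The first made up 52.9% of the 722, but 42.1% of 745 without TMM scaling. The genes had been filtered on the high purity wells alone; with the filter over all 16 wells it was 48.3% of 839 (405 against 434), so neither direction was the more frequent under every setting.

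Metallothioneins, small proteins that bind zinc and copper, moved in opposite directions. MT1H stood at 44.9, 57.99, 43.4 and 30.7 TPM on day 0 and at 142, 191, 154 and 169.8 TPM on day 2 in the high purity wells. In the low purity wells it went from 26.8, 19.6, 19.1 and 15.03 TPM to 0, 1.03, 0.954 and 0 TPM. The difference in change was 5.86 ± 0.36 (log2, limma adjusted p = 1.62e-07). MT1G rose from 25.5 ± 5.42 to 105 ± 6.67 TPM in the high purity wells and fell from 9.06 ± 1.99 to 0.487 ± 0.563 TPM in the others, and MT1X, MT1F, MT1E and MT2A followed the same pattern. MT1M fell in both differentiations. SLC30A1, a zinc exporter raised by the same metal-sensing factor, rose by 1.87 in the high purity wells and was not called in the low purity ones (0.63). All 8 tested members of the list differed in change between the differentiations, against 3.9% of all genes. Reads of near-identical metallothioneins may be split between copies, and the rise of MT2A was not called without day 0 well 1 (0.90).

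Several pluripotency genes fell less in the high purity wells. SOX2 went from 296 ± 11.7 to 16.01 ± 5.63 TPM in the low purity wells, a difference in change of 2.32, and NANOG from 92.5 ± 1.31 to 8.96 ± 2.39 TPM, a difference of 2.23. NODAL reached 109 ± 5.97 TPM on day 2 of the low purity wells, with a smaller rise than in the high purity wells (difference 2.04). FGF4 (difference 2.45) and FGF8 (3.32) also had more positive changes in the high purity wells, as did KDR (1.74) and CDH1 (1.2). CDH1 was not called in the low purity wells (-0.02). TBXT, EOMES and MIXL1 rose in both, with differences in change of 0.33 ± 0.12, 0.09 ± 0.12 and -0.10 ± 0.19, none of them called.

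Other genes changed more positively in the low purity wells. Among them were HOXB4 (difference -2.05), WNT5A (-1.37), BMP2 (-1.36), SNAI2 (-1.35) and ZEB1 (-1.27). Of 20 cholesterol genes 5 were called down there, against 7.59% of all genes. INSIG1 was not called, going from 57.9 ± 1.26 to 29.9 ± 2.76 TPM (difference -1.73). Beyond the lists, the coding genes with the largest differences in this direction were C11orf87 (-2.93), DEFA6, a defensin (-2.29), NTS, the peptide neurotensin (-2.24), ARRDC4 (-2.18) and TXNIP, the thioredoxin-interacting protein (-2.16). NTS rose from 17.3 ± 3.32 to 172 ± 54.1 TPM in the high purity wells and from 11.7 ± 2.14 to 584 ± 49.4 TPM in the low purity ones. The difference for DEFA6, with 0 reads on day 0, was not called by edgeR on recovered reads (adjusted p = 1.0), and was called under the other alternatives (adjusted p from 2.08e-07 to 3.16e-05).

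**Figure D5:**
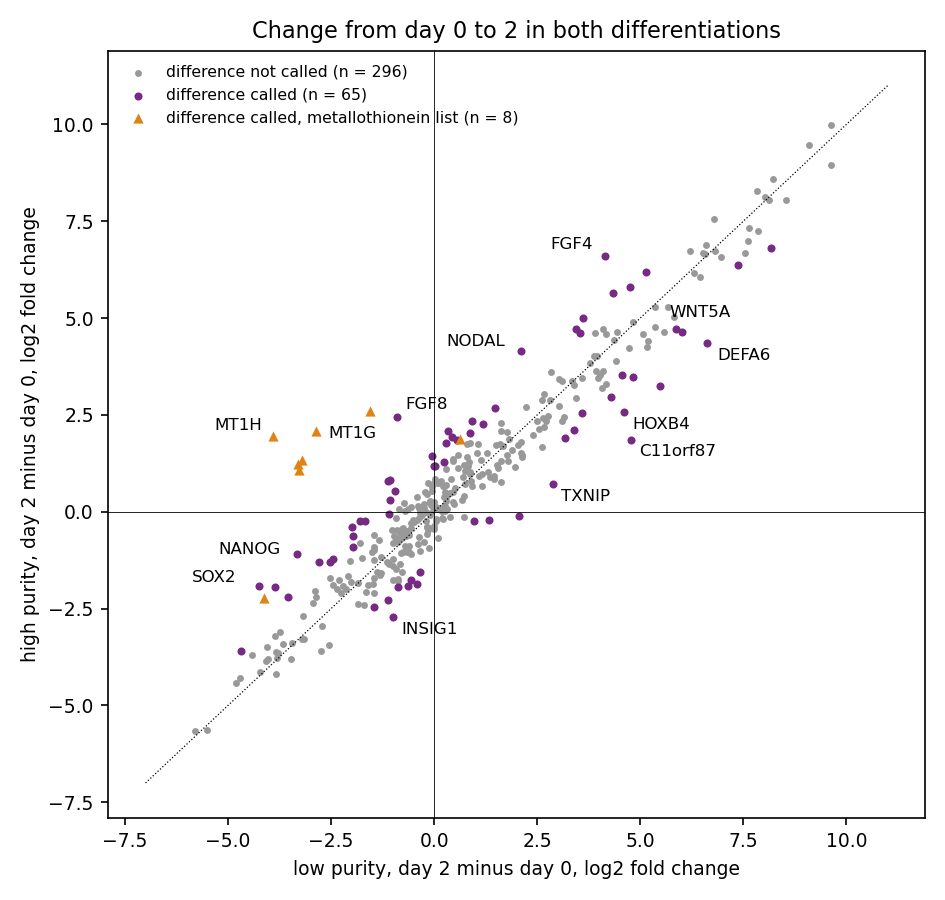
Each point is a named or listed gene, placed by its day 2 minus day 0 log2 fold change in the low purity wells (horizontal axis) and in the high purity wells (vertical axis), with genes whose change differed in purple, the metallothionein list as orange triangles and the rest in grey. Most points follow the dotted line of equal change, and 6 metallothioneins lie in the upper left, where a rise in the high purity wells met a fall in the low purity wells.

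A separate experiment sampled total RNA from 6 differentiations of WTC11, IMR90-4 (induced pluripotent) and H9 (embryonic), once on day 0 and once on day 2 (WTC11) or day 3 (the other lines). Its low purity WTC11 libraries carry the same line, passage (69) and purity labels as the low purity wells above. Whether they come from the same differentiation is not stated. A fit paired by differentiation (edgeR quasi-likelihood, 5 residual degrees of freedom) called 4972 of 21789 genes (22.8%), with 2876 up (13.2%) and 2096 down (9.62%). Of 17416 genes tested in both, 2112 were called in the same direction, which is 55.5% of the 3808 calls here and 60.7% of the 3478 there, and 7 in opposite directions. TBXT was at 212 and 101 TPM in the high and low purity WTC11 differentiations on day 2, and at 0.708 to 6.18 TPM in the 4 differentiations sampled on day 3. All 15 largest rises and all 15 largest falls were called there too, and cholesterol genes fell in 16 of 20 cases.

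Some changes seen here went another way, or were not seen, in that experiment. Of the 8 metallothionein list genes tested in the wells, 7 fell there, against 9.62% of all genes. Of the 25 glycolysis and hypoxia genes, 2 rose and 3 fell there, near the 13.2% and 9.62% of all genes. In the low purity wells 6 of these 25 rose and 3 fell, against 13.8% and 7.59%. The change of 5 was more positive in the high purity wells, against 2.06% of all genes. MT1G was at 55.7 TPM on day 0 and 3.44 TPM on day 2 in the high purity WTC11 differentiation of passage 81, and at 56.9 and 150.2 TPM in the low purity one of passage 69. The latter shares its line, passage and purity labels with the low purity wells of the first experiment, where MT1G fell. The WTC11 differentiation in which MT1G was higher on day 2 was thus the high purity one in the first experiment and the low purity one in the second. SOX2 on day 2 showed the same exchange: 19.9 TPM in the high and 99.5 TPM in the low purity differentiation of the second experiment. Purity labels of the first experiment are those of its TPM columns, which differ from those of the deposited counts. Which of them are right is not settled, and their part in this exchange was not tested. CDH1 was not called over the 6 differentiations (-2.53), with 61.2 and 93.8 TPM in high purity WTC11 and 89.5 and 1.84 TPM in high purity H9. Each value is from 1 library, and the library kits of the experiments differed.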

How the data were processed

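Poly(A) RNA of WTC11 wells was sequenced on days 0 and 2 (4 wells each), and total RNA of 6 differentiations. The labels do not say whether any of these 6 was also sampled for poly(A) RNA. STAR 2.5.3a, featureCounts 2.0.3 and hg38 are named in the submitters' processing notes. The authors deposited TPM values, whose computation is not given in the sources used here, and counts of reads per gene. In the deposited counts of the poly(A) experiment 0 of 56 columns matched their namesake among the TPM. The files do not settle which set of names is right, and the deposited TPM and their names were used there; the deposited counts were used for the total RNA experiment, less 36 broken lines. Gene lengths solved from that experiment turned TPM into whole reads (within 0.01) for 100% of values in 37221 genes.

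TPM were scaled by TMM (edgeR 4.0.16), and log2(TPM + 1) was fitted with limma 3.58.1 (trend, 6 residual degrees of freedom) in R 4.3.3. The difference between purity classes used 16 wells (12 residual degrees of freedom), and counts were fitted with edgeR quasi-likelihood, paired by differentiation. Wells with the same number on days 0 and 2 were not paired (correlations of deviations from -0.007 to 0.025). Wells of a day differed by more than sampling noise (chi-square per degree of freedom of at least 2.54). Scripts were tested on simulated data. Intervals of ratios are exact 95% intervals and cover counting error only.

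The members and the 29 gene lists (426 genes) were chosen with earlier results of these data known. Named genes are the 15 largest coding rises and falls with at least 10 TPM on the higher day and wells that do not overlap, 5 noncoding genes of at least 200 bases each way, 5 differences between purity classes each way, and listed genes, some of which are not reported here. Alternatives were pseudocount 0.1 TPM, no TMM, no filter or 5 TPM, each well left out, a replicate block, a fit on 56 libraries, and edgeR or DESeq2 1.42.0 on recovered reads. Gene positions and promoters are from RefSeq on GRCh38.p14, and 17336 of the genes kept had an entry.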

Additional observations from a re-analysis of the deposited data

Results flagged for a closer look

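In 8 of 100 groups of 4 wells of a named gene, 1 well stood apart from the other 3 by most of the range; chance alone gives about 1 in 20. For 5 genes near 0 the well that stood apart was the one with any read, while the others were at 0: RSPO3 in day 0 well 3 (0.0949 TPM), GATA6 in day 0 well 2 (0.0452 TPM), FOXD3 in day 2 well 3 (0.0954 TPM), PPIAP46 in day 0 well 1 (0.552 TPM) and LINC01484 in day 2 well 4 (0.358 TPM). TRIML2 had 42.7 TPM in day 0 well 4 against 45.4 to 45.9 TPM in the others. PPP2R2B had 37.3 TPM in the same well against 39.5 to 39.8 TPM. FOXD3-AS1 had 94.2 TPM in day 0 well 2 against at least 99.6 TPM in the others. Each of these gaps was small beside the change to day 2.

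Listed genes not named for the size of a change or difference are left out here. For 13 of the genes so named the change from day 0 to 2 differed between the high and low purity differentiations, by a test of the difference itself. The 5 largest differences each way had been named because they were called, so their calls are no result. The share over all genes was 3.9%, and 65 of the 340 listed genes tested were called. The differences (high minus low, log2) were 5.86 for MT1H, 4.93 for MT1G, 4.53 for MT1X, 4.52 for MT1F and 4.35 for MT2A, all of which rose in one differentiation and fell in the other. They were -2.93 for C11orf87, -2.29 for DEFA6, -2.24 for NTS, -2.18 for ARRDC4 and -2.16 for TXNIP. Of the genes with the largest changes, PRDM14 fell less in the high purity wells (1.08), LNCAROD rose less there (-1.38) and LOC105379675 rose more (1.01). Passage and differentiation differ together with purity, and their parts in these differences cannot be told apart.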

How the results depend on the processing

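The number of genes called between day 0 and day 2 (4126) ranged from 2908 (filter at 5 TPM) to 5219 (edgeR on recovered reads), with 5134 by DESeq2, 5203 with a pseudocount of 0.1 TPM and 4048 to 4263 with 1 well left out. Without a fold change threshold it was 11931, with 6317 up and 5614 down. With wells paired by number in a replicate block it was 4150, and the block moved no count by 1.5 times. The difference between purity classes (722) ranged from 636 to 936, was 636 to 800 with 1 well left out and 709 with the block, and was 5049 without the threshold (2500 more positive in the high purity wells, 2549 in the low purity wells). In the total RNA experiment (4972) leaving out 1 differentiation gave 4189 to 5221, the high purity differentiations alone gave 1929 (1018 up, 911 down), with fewer samples, and no threshold gave 9698 (5028 up, 4670 down).

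Named genes kept direction and call in 400 of 400 refits of the day comparison and in 79 of 80 refits of the difference between classes; DEFA6 was the exception (-2.32, adjusted p = 1.0 by edgeR on recovered reads, and 2.08e-07 to 3.16e-05 under the others). These named genes had been chosen as the largest called changes or differences, and the refits reused the same wells. Kept calls were therefore favoured by the choice. List genes kept direction and call in 3266 of 3348 refits, with 15 calls lost, 45 gained and 22 changes of sign, all 22 in genes not called. Depth limits low genes: 209 of the called genes had at most 10 reads in every well.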

Other observations

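Small RNA genes were also called in these poly(A) libraries: 84 of 370 small nucleolar RNA genes tested (22.7%) and 86 of 432 microRNA genes (19.9%), against 22.3% of all genes. Which transcripts such reads come from was not tested.

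Along the first principal component of day 2 wells (38.8% of the variance of 9116 genes), wells 1 and 4 had loadings of 0.479 and 0.495. Wells 2 and 3 had -0.647 and -0.327. Centred wells must split by sign along a component, so the split alone shows no pairs. Chi-square per degree of freedom was lowest between wells 1 and 4 (2.54). Between wells 2 and 3 it was 4.34, near the 4.72 of wells 1 and 3. Single genes of the lists in which wells 1 and 4 differed from wells 2 and 3 were picked after their values were seen, and test nothing. NODAL was at 238 and 239 TPM in wells 1 and 4 and at 327 and 308 TPM in wells 2 and 3. FOXA2 was at 79.8 and 66.7 TPM against 121 and 126 TPM, CDH1 at 336 and 328 TPM against 454 and 419.5 TPM, and VEGFA at 177 and 177.5 TPM against 243 and 307 TPM. In the other direction HOXB4 was at 7.35 and 8.57 TPM against 2.401 and 3.35 TPM, ALDH1A2 at 23.3 and 29.4 TPM against 15.3 and 14.5 TPM, and UHRF1 at 26.2 and 28.3 TPM against 18.5 and 19.3 TPM. In the comparison of purity classes NODAL, FOXA2, CDH1 and VEGFA had changes more positive in the high purity wells. HOXB4 and UHRF1 had changes more positive in the low purity wells, and the difference for ALDH1A2 was not called (-0.94). Whether differences between wells and between purity classes go together over all genes was not tested. Day 0 wells 1 to 4 had loadings of 0.573, 0.141, -0.803 and 0.089. The labels name no batch within a day.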
